A study of Mus musculus with 8 samples.

Results

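The genes described here are 7 mouse genes of the Fc receptor and Fc-receptor-like family: Faim3 (now named Fcmr), Fcer2a, Fcrl1, Fcrla, Fcgr2b, Fcgr3 and Fcer1g. They were taken by name, as the probesets whose array annotation gives only 1 of these symbols, which is 61 of the 212097 probesets with a single symbol and 7 of 20416 genes. Values are log2 expression, and a gene's value is the median polish over its probesets, 9 for Faim3, 14 for Fcer2a, 11 for Fcrl1, 6 for Fcrla, 11 for Fcgr2b and 5 each for Fcgr3 and Fcer1g. All 7 genes were among the 16050 tested, that is, they exceeded 4.03 (log2) in 2 arrays or more.

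The study profiled FACS-purified mouse pro-B cells, the B-cell progenitors that rearrange the immunoglobulin heavy chain gene, with and without the histone H3 lysine methyltransferase Setdb1. Each of 4 groups had 2 arrays. The marrow groups were Setdb1 C/C controls, whose gene is floxed but present, and Setdb1 Δ/Δ cells, neither with a Bcl2 transgene. The culture groups were Setdb1 C/C and Setdb1 Δ/Δ cells that both carried a bcl-2 transgene and were grown in IL-7, given as 5 ng/µl, for 4 days. Culture and transgene always went together, so they cannot be told apart. The deleter line, the ages and whether the 2 arrays of a group came from separate animals are not given in the sources used here, and p-values then measure only the spread between these samples. The culture step is written in the labels of all 8 arrays, although the design text has the marrow cells taken directly.

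Fc receptors bind the constant part of antibodies. Activating receptors such as the one made with the Fcgr3 chain signal through a partner chain, Fcer1g, whose cytoplasmic tail holds an immunoreceptor tyrosine-based activation motif (ITAM) that recruits the kinase Syk. Fcgr2b is the inhibitory counterpart on B cells and myeloid cells, and its tail holds an inhibitory motif (ITIM) that recruits the phosphatase Inpp5d. Faim3 binds IgM and Fcer2a, or CD23, binds IgE with low affinity; both are known from mature B cells rather than from progenitors. Fcrl1 and Fcrla belong to the Fc-receptor-like genes of B cells, Fcrl1 a surface protein with ITAM-like motifs and Fcrla an intracellular protein that binds immunoglobulin inside the cell.

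The promoter windows of the 3 genes that passed a deletion test, and of Fcrla, a B-cell gene of the same family that did not, are shown to set them side by side. Each runs from 250 bases before to 50 after the gene start (RefSeq, GRCm38.p6) and is written 5′ to 3′ on the gene's strand: chr1:130865527-130865826 (plus) for Faim3, chr8:3694125-3694424 (minus) for Fcer2a, chr3:87376137-87376436 (plus) for Fcrl1 and chr1:170927534-170927833 (minus) for Fcrla. Capitals mark GAGGAA on either strand, the core of sites for the factor PU.1, and TATAAA on the gene's strand.
Faim3: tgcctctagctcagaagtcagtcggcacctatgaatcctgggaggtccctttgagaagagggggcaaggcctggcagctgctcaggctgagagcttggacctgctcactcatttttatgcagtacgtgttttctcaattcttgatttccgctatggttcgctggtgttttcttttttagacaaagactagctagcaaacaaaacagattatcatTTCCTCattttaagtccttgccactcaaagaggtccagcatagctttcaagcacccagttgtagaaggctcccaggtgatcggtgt
Fcer2a: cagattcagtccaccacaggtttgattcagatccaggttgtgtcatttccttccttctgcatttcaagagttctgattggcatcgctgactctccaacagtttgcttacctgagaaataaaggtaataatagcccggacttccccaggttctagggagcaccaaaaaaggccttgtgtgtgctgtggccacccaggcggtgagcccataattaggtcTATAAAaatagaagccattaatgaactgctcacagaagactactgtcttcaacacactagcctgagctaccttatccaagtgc
Fcrl1: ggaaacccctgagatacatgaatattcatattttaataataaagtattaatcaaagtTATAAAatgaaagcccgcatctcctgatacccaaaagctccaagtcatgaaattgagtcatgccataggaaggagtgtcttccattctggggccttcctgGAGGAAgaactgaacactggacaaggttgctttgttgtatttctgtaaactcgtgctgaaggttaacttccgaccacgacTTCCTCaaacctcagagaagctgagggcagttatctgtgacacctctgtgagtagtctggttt
Fcrla: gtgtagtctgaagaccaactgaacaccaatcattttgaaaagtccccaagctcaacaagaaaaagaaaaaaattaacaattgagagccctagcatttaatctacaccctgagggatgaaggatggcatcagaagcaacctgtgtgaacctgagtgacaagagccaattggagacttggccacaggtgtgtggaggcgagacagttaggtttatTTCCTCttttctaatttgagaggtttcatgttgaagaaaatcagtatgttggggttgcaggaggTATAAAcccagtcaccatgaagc

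The PU.1 core began at -36 relative to the gene start in Faim3 and at -37 in Fcrla, and at -93 and -13 in Fcrl1. Fcer2a had none in its window but had TATAAA at -33, which Fcrl1 had at -193 and Fcrla at 27. For Fcer2a 3 windows were listed, and for Fcgr3 2, of which only the window nearest the annotated gene start was searched. Over 32851 RefSeq windows of the same length, 28.3% held GAGGAA and 13.6% held TATAAA, each counted on either strand. The E-box CANNTG, read on both strands, occurred 3 times in Faim3, once in Fcer2a, 4 times in Fcrla and not in Fcrl1, against 72.3% of windows with at least 1. The windows held 5 CpG dinucleotides in Faim3, 3 in Fcer2a, 4 in Fcrl1 and 1 in Fcrla, where the median window held 7. Neither the octamer ATGCAAAT (1.74% of windows) nor the STAT spacing TTCNNNGAA (8.3%) occurred in any of the 7 genes' windows, on either strand. The core CCCNNGGG of sites for the factor EBF (13.7% of windows) occurred in none of the 4 windows shown. No motif searched was present in all of Faim3, Fcer2a and Fcrl1 and missing from Fcrla, and a match describes the window and is no evidence of binding.

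Across the series, array medians of the gene values lay between 5.25 and 5.33 and replicate arrays correlated across genes at 0.945 in marrow controls and between 0.968 and 0.988 in the other groups. The 11 pro-B markers used here were above the dim value in every array, with means between 9.43 and 10.37. Setdb1 over its 23 probesets read 7.02 and 6.67 in marrow controls, 6.74 and 6.53 in marrow deleted cells, 6.84 and 6.45 in culture controls and 6.66 and 6.99 in culture deleted cells. Of the 23 probesets, 7 had both deleted arrays below both controls in marrow and 2 in culture, against 17.6% and 19.3% of all probesets. Their changes ran from -1.40 to 0.78 in marrow (median -0.16) and from -1.46 to 1.35 in culture (median 0.15). The deleted part of the gene is not given in the sources used here and a probeset outside it is no check, so the labels are left unchecked by these values. The 2 marrow controls differed in myeloid genes, in both directions: of 14 neutrophil and monocyte markers, 7 were higher in each. The macrophage genes Csf1r, Emr1 and Cd68 read 10.18, 10.03 and 11.07 in control 1 against 7.86, 6.65 and 8.26 in control 2, while the granule genes Mpo and Ctsg read 9.60 and 6.82 in control 1 against 11.19 and 8.87 in control 2. In culture, the second arrays read higher for neutrophil genes, with S100a8 at 11.80 and 11.92 in the second control and deleted arrays against 5.68 and 7.83 in the first.

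Faim3, Fcer2a and Fcrl1 were each lower in all 4 Setdb1-deleted arrays than in all 4 controls. The share of all genes separated this way was not counted, so the separation only describes these genes. Averaged over marrow and culture, Faim3 fell 10.3-fold and Fcrl1 5.22-fold. Fcer2a fell 8.51-fold, a size that is uncertain because all 4 of its deleted arrays lay under the dim value of 4.03. The other 4 genes passed no deletion test. Fcrla was level across the groups, and Fcgr3 and Fcer1g were lower in deleted than in control cells from marrow and higher, with overlap for Fcer1g, in culture.

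Of all genes tested, 0.131% passed for deletion in marrow in either direction, and 0 of the 7 genes were among them; 4 of the 7 and 1899 of all genes had an unadjusted p under 0.05. For deletion in culture 0.710% of genes fell and 2 of the 7 did, Faim3 and Fcrl1. For the mean deletion effect 1.38% fell and 3 of the 7 did, Faim3, Fcer2a and Fcrl1. Of these, Fcer2a entered the test only through its controls, so its call is not taken as support.

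**Figure D1:**
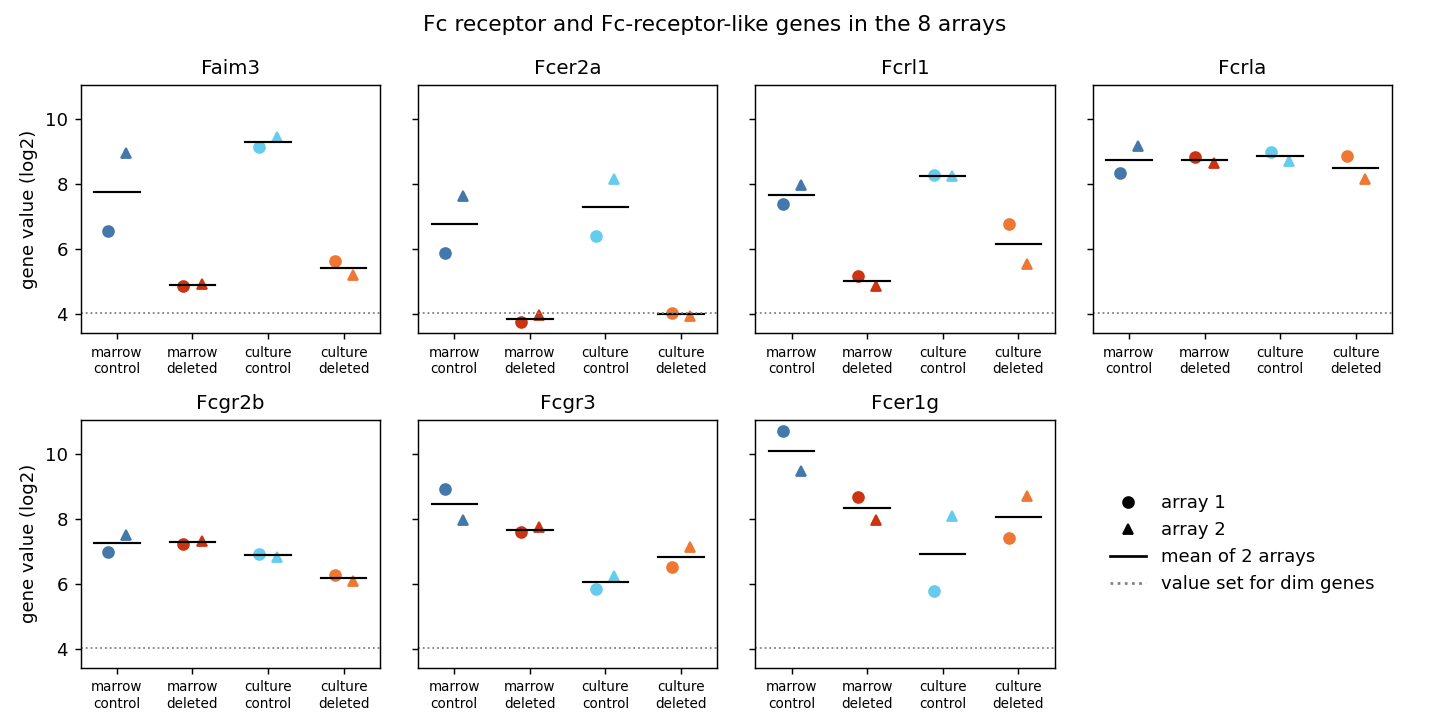
Log2 expression of the 7 genes in each of the 8 arrays, by group, with a bar at each group's mean (n = 2). Faim3, Fcer2a and Fcrl1 lie lower in every deleted array, while Fcgr3 is higher in every marrow array than in every culture array.

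Faim3, the IgM Fc receptor, read 6.54 and 8.95 in marrow controls, 4.86 and 4.92 in marrow deleted cells, 9.12 and 9.44 in culture controls and 5.63 and 5.21 in culture deleted cells. No 2 groups overlapped, and the order ran from culture controls (9.28 ± 0.23, SD, n = 2) through marrow controls (7.75 ± 1.71) and culture deleted cells (5.42 ± 0.30) to marrow deleted cells (4.89 ± 0.044). The 2 control means differed by less than the 2 marrow controls did from each other. Marrow control 1, the lower of them for Faim3 and Fcer2a, was the array with the higher macrophage genes. In culture Faim3 fell by 3.86 on the log2 scale (SE 0.65, 95% confidence interval -5.38 to -2.34, limma adjusted p = 0.0395), a 14.5-fold change and the largest fall of any gene tested there. In marrow the difference was -2.86 (SE 0.65, interval -4.37 to -1.34) and did not pass (limma adjusted p = 0.163). The mean of both was -3.36 (SE 0.46, adjusted p = 0.0158).

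Fcer2a, the low-affinity IgE receptor CD23, read 5.86 and 7.64 in marrow controls, 3.76 and 3.95 in marrow deleted cells, 6.39 and 8.16 in culture controls and 4.03 and 3.95 in culture deleted cells. The control groups overlapped each other (6.75 ± 1.26 in marrow and 7.27 ± 1.25 in culture, SD, n = 2), as did the deleted groups (3.85 ± 0.14 and 3.99 ± 0.059), but no control overlapped a deleted array. With its deleted arrays all under the dim value, the gene passed the filter only through its controls, so its call in the mean is not taken as support. The difference was -2.89 in marrow (SE 0.66, adjusted p = 0.164) and -3.28 in culture (SE 0.66, interval -4.83 to -1.74, adjusted p = 0.0678), and neither passed alone. Fcer2a fell by 3.09 as the mean of both (SE 0.47, adjusted p = 0.0207).

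Fcrl1 read 7.37 and 7.95 in marrow controls, 5.16 and 4.86 in marrow deleted cells, 8.27 and 8.24 in culture controls and 6.76 and 5.52 in culture deleted cells. The groups were again separate, in the order culture controls (8.25 ± 0.021, SD, n = 2), marrow controls (7.66 ± 0.41), culture deleted cells (6.14 ± 0.88) and marrow deleted cells (5.01 ± 0.22). Fcrl1 fell by 2.11 in culture (SE 0.38, interval -3.01 to -1.22, adjusted p = 0.0491), a 4.33-fold change. In marrow the difference was -2.65 (SE 0.38, adjusted p = 0.0715), or 6.28-fold. It fell by 2.38 as the mean of both (SE 0.27, adjusted p = 0.00873).

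**Figure D2:**
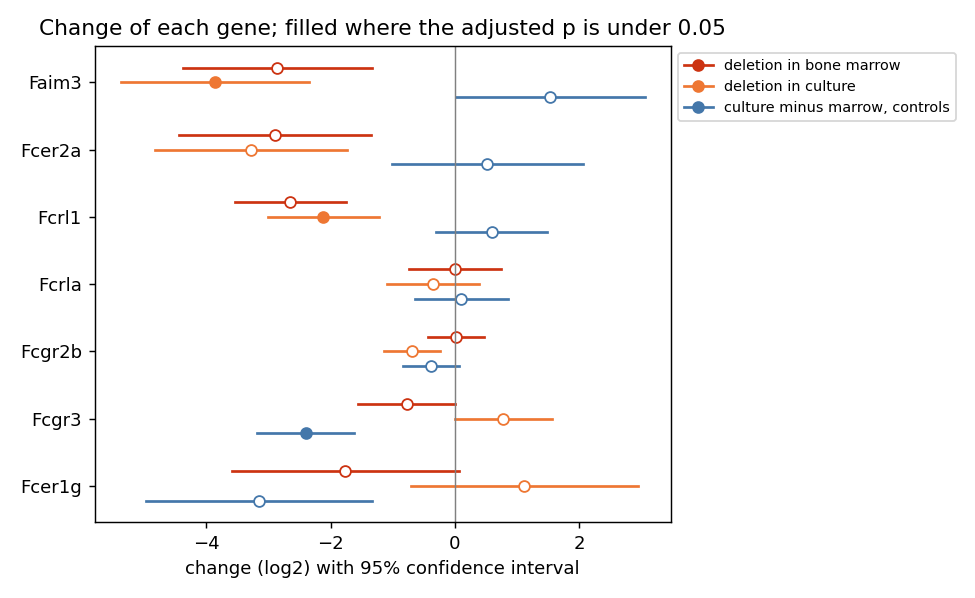
Log2 change with its 95% confidence interval for each of the 7 genes under deletion in marrow, deletion in culture and culture against marrow in controls, with filled points where the adjusted p is under 0.05. Faim3, Fcer2a and Fcrl1 have intervals below 0 under both deletions, and Fcgr3 and Fcer1g change sign between them.

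These calls rested on few arrays. For each alternative that ended one of them limma's adjusted p is given here, except for the fit with the replicate number as a block. That fit ended the culture calls of both Faim3 and Fcrl1, and its values are in the closing section. In culture, Faim3 no longer passed without either marrow deleted array (adjusted p = 0.103 for each), without culture control 1 (0.223) or 2 (0.133), or without culture deleted array 1 (0.13) or 2 (0.192), with changes of -3.65 to -4.07. Fcrl1 in culture no longer passed without either marrow deleted array (0.117 for each), without culture control 1 (0.281) or 2 (0.144), or without culture deleted array 2 (0.132, change -1.50). For the mean effect, no gene of the 7 passed without either marrow deleted array: adjusted p = 0.0848 and 0.0952 for Faim3 without array 1 and array 2, 0.102 and 0.103 for Fcer2a, and 0.0501 and 0.0644 for Fcrl1. Without culture deleted array 1 the mean effect gave 0.051 for Faim3 and 0.0652 for Fcer2a, without culture deleted array 2 it gave 0.0681 and 0.0831, and without culture control 1 it gave 0.0653 for Faim3. In marrow, Faim3 changed by -4.07 without marrow control 1 and by -1.65 without marrow control 2. Fcrl1 in marrow changed by -2.36 without marrow control 2. Some calls were gained with 1 array left out, where the spread of every gene is estimated anew. How many of all genes then passed is not given here, so gained calls are no result about these genes. Without both second culture arrays, which leaves 1 array in each culture group, the culture changes were -3.49 for Faim3 (0.348) and -1.51 for Fcrl1 (0.247), and the mean changes -3.17 for Faim3 (0.148), -2.63 for Fcer2a (0.13) and -2.08 for Fcrl1 (0.0673). In culture neither gene passed after quantile normalisation (0.0525 for Faim3 and 0.0678 for Fcrl1) or with trend and robust moderation (0.092 and 0.0507), which also ended the call of Fcer2a in the mean (0.0514). Fcrl1 in culture further lost its call with no dim filter (0.0528), with dim probesets left out (0.0544) and with only the culture groups fitted (0.0835). In bulk samples such as these, fewer cells of a type and less RNA per cell cannot be told apart.

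Markers of mature B cells moved with these 3 genes. The list was chosen with earlier results of these data known, so its falls are no independent support. Of 10 listed, 8 were on the array, and 4 fell in marrow, 6 in culture and 7 in the mean, with median changes of -2.77 in marrow and -1.98 in culture against 0.04 and 0.01 over all genes. Among those that fell were Cd74, which chaperones MHC class II chains (-3.23 in marrow and -1.65 in culture), and Cd55, a complement regulator (-2.76 and -3.82). Their mean per array was 8.05 to 8.68 in marrow controls, 5.64 to 5.78 in marrow deleted cells, 8.86 to 9.17 in culture controls and 6.55 to 6.96 in culture deleted cells. No pro-B marker of the 11 passed in marrow or in culture, and 1, the surrogate light chain gene Igll1, rose in the mean (0.98, adjusted p = 0.027). In culture, though, 8 of the 11 had an unadjusted p under 0.05 and the list median was -0.54 against 0.01 over all genes. The recombinase gene Rag1 read 9.95 and 9.35 in culture controls and 7.03 and 6.43 in culture deleted cells (-2.92, SE 0.53, adjusted p = 0.0504), and in marrow the list median was 0.31. The part of mature B cells in the values of Faim3, Fcer2a and Fcrl1 was not tested.

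**Figure D3:**
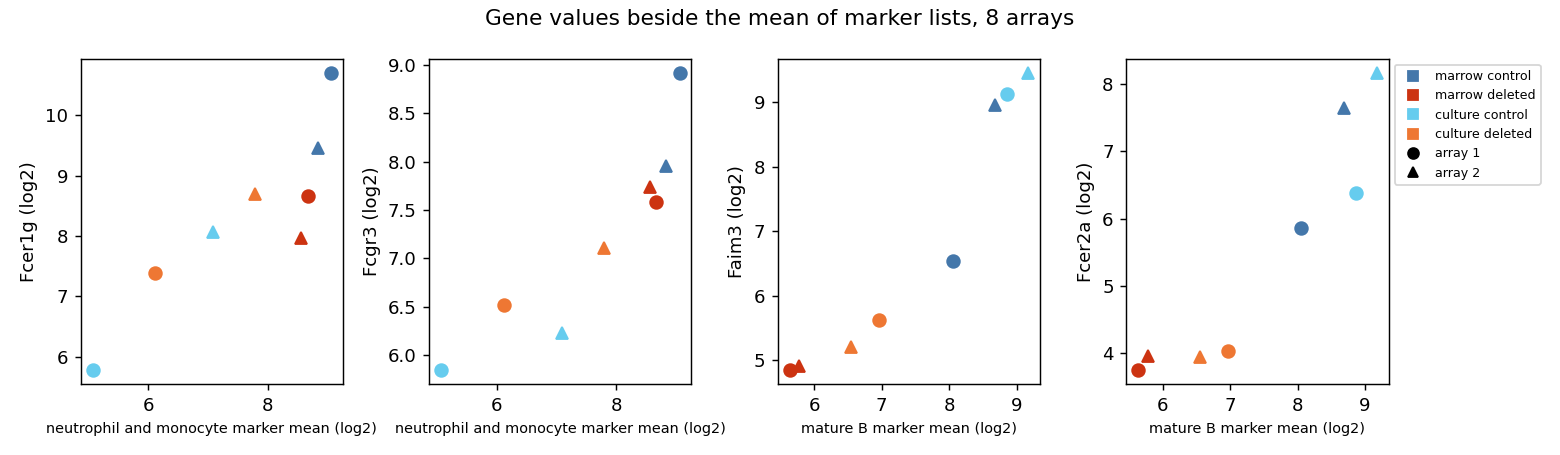
Per-array log2 value of Fcer1g and Fcgr3 against the mean of 14 neutrophil and monocyte markers, and of Faim3 and Fcer2a against the mean of 8 mature B markers (8 arrays, colours for groups and shapes for array number). Fcer1g is lowest, at 5.79, in the array with the lowest myeloid mean. The arrays with a mature B mean under 7 are the deleted arrays, where Faim3 and Fcer2a are low. Those panels thus repeat the deletion comparison, and the part of either cell type was not tested.

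Fcrla, the intracellular family member, read 8.33 and 9.15 in marrow controls, 8.83 and 8.65 in marrow deleted cells, 8.98 and 8.71 in culture controls and 8.85 and 8.13 in culture deleted cells. All 4 groups overlapped their neighbours in level. The difference was 0 to 2 decimals in marrow (-0.00077, SE 0.32, interval -0.74 to 0.74) and -0.35 in culture (SE 0.32, interval -1.09 to 0.39, adjusted p = 0.695).

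Fcgr2b, the inhibitory receptor for IgG, read 6.99 and 7.51 in marrow controls, 7.23 and 7.32 in marrow deleted cells, 6.90 and 6.83 in culture controls and 6.27 and 6.09 in culture deleted cells. The marrow groups overlapped, culture controls lay just under them and culture deleted cells were lowest. The difference was 0.02 in marrow (SE 0.19, interval -0.43 to 0.47) and -0.68 in culture (SE 0.19, interval -1.13 to -0.23), where it had an unadjusted p of 0.00834 and did not pass after adjustment (0.16). Its probesets differed among themselves. Counted in the order of their numbers on the array, the first 3 and the sixth were lower by 1.98, 1.47, 1.30 and 1.12 in deleted culture cells, while the other 7 lay between -0.57 and 0.0047. The probeset with the widest difference read 8.50 and 8.27 in culture controls and 5.76 and 7.05 in culture deleted cells, against 8.44 and 8.51 in marrow controls and 8.64 and 8.93 in marrow deleted cells. Tested as separate probesets, these 4 had adjusted p of 0.262, 0.278, 0.257 and 0.339, and where they lie in the gene is not known here. The extracellular parts of mouse Fcgr2b and Fcgr3 are known to be very alike, so a probeset there may read both genes, which was not tested.

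Fcgr3, the activating IgG receptor chain, read 8.91 and 7.96 in marrow controls, 7.58 and 7.74 in marrow deleted cells, 5.85 and 6.22 in culture controls and 6.52 and 7.11 in culture deleted cells. The 4 groups did not overlap, and both marrow groups were above both culture groups. Deletion went with a difference of -0.78 in marrow (SE 0.33, adjusted p = 0.421) and 0.78 in culture (SE 0.33, adjusted p = 0.331). Neither passed, and the probeset numbered last went its own way, at 2.65 and 5.07 in marrow controls and 4.80 and 6.02 in marrow deleted cells.

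Fcer1g, the ITAM-bearing chain shared by activating Fc receptors, read 10.70 and 9.46 in marrow controls, 8.66 and 7.97 in marrow deleted cells, 5.79 and 8.06 in culture controls and 7.39 and 8.70 in culture deleted cells. Marrow controls lay above all other arrays and the other 3 groups overlapped in level. The difference was -1.76 in marrow (SE 0.78, adjusted p = 0.439) and 1.12 in culture (SE 0.78, adjusted p = 0.576), and neither passed. The 2 culture controls differed from each other by more than the deletion and control means did.

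Both genes are known from neutrophils, monocytes and macrophages, and 14 of 15 listed markers of those cells were on the array. Their mean was 8.84 to 9.06 in marrow controls, 8.56 to 8.67 in marrow deleted cells, 5.07 to 7.09 in culture controls and 6.12 to 7.79 in culture deleted cells. In marrow the list went both ways with deletion, 10 of 14 lower (Csf1r -2.20, Emr1 -2.65 and Cd68 -2.50 among them) and 4 higher (Ctsg 2.0, Prtn3 1.88, Ms4a3 1.86 and Mpo 1.54). In culture all 14 were higher, by 0.15 to 2.14, and none passed for deletion in either setting. All 14 were above the dim value in the marrow arrays, and in culture 12 to 14 were, with Ctsg at 3.71 and Ms4a3 at 3.61 in culture control 1. The part of these cells in the values of Fcgr3 and Fcer1g was not tested. The mean of 8 mast cell and basophil markers, cells that also use Fcer1g, was 5.15 to 5.46 in marrow controls and 4.03 to 4.45 in the other groups. Of the 6 tested, 1, the basophil protease gene Mcpt8, fell in the mean deletion effect (limma adjusted p = 0.0383). It differed by -2.03 in marrow (limma adjusted p = 0.0715) and by -0.31 in culture (0.723), passing in neither alone. In culture it was near the dim value, at means of 4.10 in controls and 3.79 in deleted cells. Of the NK cell markers (means of 4.19 to 4.95) and the plasmacytoid dendritic cell markers (6.31 to 7.84), none passed a deletion test.

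The difference between the deletion effects, culture minus marrow, was tested directly. It passed for 0 of the 16050 genes (0% called), with 1216 genes and 3 of the 7, Fcgr2b, Fcgr3 and Fcer1g, at an unadjusted p under 0.05. It was 1.56 for Fcgr3 (SE 0.47, interval 0.46 to 2.66, unadjusted p = 0.0117, adjusted p = 0.592), 2.88 for Fcer1g (SE 1.10, adjusted p = 0.63) and -0.71 for Fcgr2b (SE 0.27, adjusted p = 0.633). For Faim3 it was -1.0 (SE 0.92, interval -3.15 to 1.14), for Fcer2a -0.39 (SE 0.94, interval -2.57 to 1.79) and for Fcrl1 0.54 (SE 0.54), none past the threshold. Without marrow control 2, the control with the lower macrophage genes, it was 2.04 for Fcgr3 and -2.21 for Faim3.

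In controls, culture was set against marrow, a comparison that shares the marrow controls with the deletion test in marrow and the culture controls with that in culture. Of all genes 0.305% passed, and of the 7 only Fcgr3 did, lower in culture by 2.40 (SE 0.33, interval -3.18 to -1.63, adjusted p = 0.0462), a 5.29-fold difference. Fcer1g differed by -3.15 (SE 0.78) but did not pass (adjusted p = 0.176), its culture controls being 5.79 and 8.06. Faim3 was 1.53 higher (SE 0.65, adjusted p = 0.376), Fcrl1 0.59 higher (SE 0.38) and Fcer2a 0.52 higher (SE 0.66), without passing. Fcgr2b differed by -0.38 (SE 0.19) and Fcrla by 0.10 (SE 0.32). Fcgr3 no longer passed without marrow control 1 (-1.93, adjusted p = 0.0588), marrow deleted array 1 or 2 (0.121 for each), culture control 1 (-2.22, 0.29) or 2 (-2.59, 0.0942), or culture deleted array 1 or 2 (0.0761 for each). Without marrow control 2, Faim3 was 2.74 higher in culture. In the neutrophil and monocyte list 2 of 14 passed, the granule enzyme gene Mpo (-4.89) and the myeloid transcription factor gene Cebpa (-2.16), and the median change was -2.82 against 0.01 over all genes.

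Probesets of one gene read the same RNA and are no independent replicates, but they show how evenly a difference runs along a gene. In Faim3, 8 of 9 probesets had both deleted arrays below both controls in marrow, and 8 of 9 in culture. For Fcer2a it was 13 of 14 in each, and for Fcrl1 10 of 11 in each. Fcrla had 0 of 6 in marrow and 1 of 6 in culture, and Fcgr2b 1 of 11 and 8 of 11. Fcgr3 and Fcer1g had 4 of 5 each in marrow and 0 of 5 in culture. There, 2 of the 5 in Fcgr3 were instead higher in both deleted arrays, as were 19.6% of all probesets. In all, 40 of 61 probesets were separated this way in marrow, where 17.6% of all probesets were, and 40 of 61 in culture, where 19.3% were.

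Within Faim3, probeset differences ran from -4.51 to -0.12 in marrow (median -3.12) and from -5.29 to -0.07 in culture (median -3.89). The probeset at the weak end in culture read 3.95 and 2.34 in culture controls and 3.43 and 2.72 in culture deleted cells, all under 4.16, the 25th percentile of probeset values. Fcer2a ran from -5.30 to -1.14 (median -2.84) and from -5.22 to -1.36 (median -3.25), and Fcrl1 from -4.29 to -0.29 (median -2.67) and from -3.27 to -1.06 (median -2.11). With probesets as the unit of the limma fit, 0 of 61 passed in marrow and 0 in culture, as for all 212097 (0% called), while 30 and 34 of the 61 had an unadjusted p under 0.05, against 7.09% and 9.55% of all probesets.

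**Figure D4:**
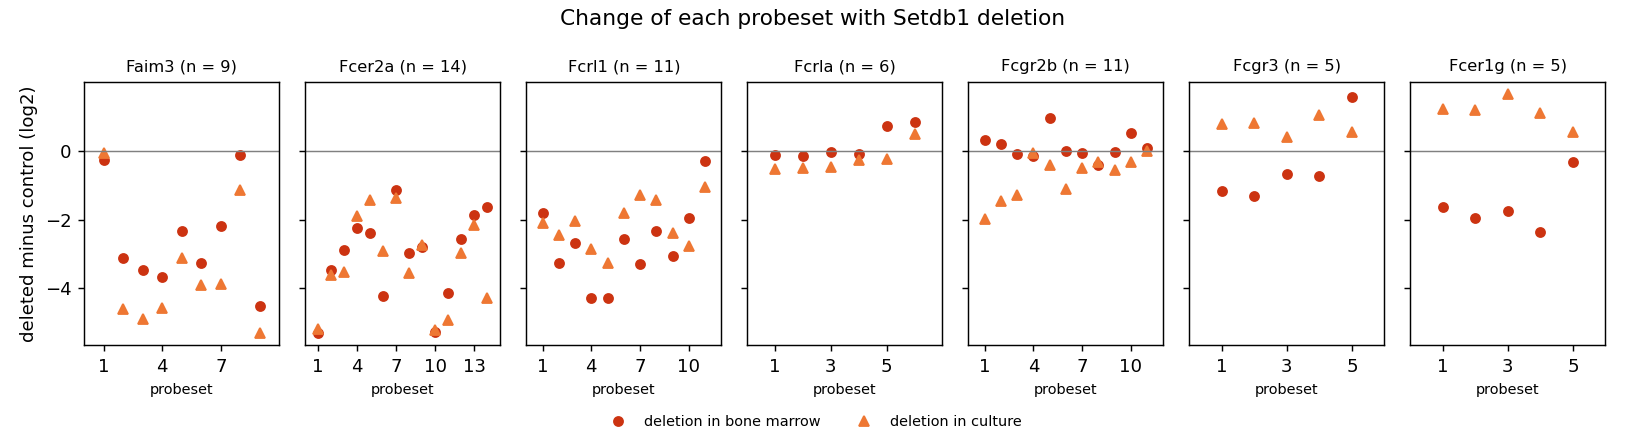
Change in log2 value under deletion for every probeset of the 7 genes, in the order of probeset numbers, in marrow and in culture. All probesets of Faim3, Fcer2a and Fcrl1 lie below 0 in both settings, and in Fcgr2b the lowest culture values are those of the first probesets.

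Of 12 other Fc receptor genes, 11 were tested. For deletion in marrow none passed (5 had an unadjusted p under 0.05), with a median change of -0.56 against 0.04 over all genes. For deletion in culture 1 passed, higher in deleted cells, with a median of -0.14 against 0.01. The gene that passed was Fcrls, an Fc-receptor-like gene that codes for a scavenger-receptor-like protein, with 3.24 and 3.47 in culture controls and 4.44 and 4.34 in culture deleted cells (1.04, SE 0.15, adjusted p = 0.0291); its other 6 arrays, at 3.06 to 3.57, lay under the dim value of 4.03. It entered the test only through the culture deleted arrays, so its call there follows in part from the filter and supports nothing, and in marrow it differed by -0.40 (adjusted p = 0.365). Fcgr1, the high-affinity IgG receptor of macrophages, read 8.93 and 6.83 in marrow controls and 5.44 and 5.42 in marrow deleted cells (-2.45, SE 0.60, adjusted p = 0.19), and the control with the higher macrophage genes was the higher of the pair. Fcgr4, another activating receptor, differed by -1.82 in marrow (SE 0.49, adjusted p = 0.228) and 0.05 in culture.

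Among the genes that pass on or dampen ITAM and ITIM signals, 17 of 20 were on the array and tested. None passed for deletion in marrow (7 at an unadjusted p under 0.05), with a median change of -0.13. In culture 2 fell, Syk, the kinase that binds phosphorylated ITAMs, by 1.42 (adjusted p = 0.0491), and Ptpn6, the phosphatase SHP-1, by 0.99 (adjusted p = 0.0388), and none rose. In the mean of both, 3 fell, Syk by 1.0 (adjusted p = 0.0354), Ptpn6 by 0.98 (adjusted p = 0.0106) and the kinase Blk by 1.13 (adjusted p = 0.0181), with a median of -0.28 against 0.02 over all genes. Of all genes, 0.710% fell in culture and 1.38% in the mean. Alternatives were run for the 7 genes only, so the calls of Syk, Ptpn6 and Blk were not put to them. The inhibitory partner of Fcgr2b, Inpp5d, differed by 0.29 in marrow and 0.04 in culture and did not pass.

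Genes were also ranked by how close their profile over the 8 arrays was to each of the 7, as the root mean square of the differences after each gene's mean was taken out, and the 3 closest are given. This is a description on these 8 arrays. The gene closest to Faim3 was Fcer2a (0.575 log2 units), followed by Btla (0.616), an inhibitory receptor of lymphocytes, and Cd55 (0.621). Closest to Fcer2a were Faim3, Cd55 (0.628) and Tlr1 (0.662). Closest to Fcrl1 were Cd22 (0.272), an inhibitory co-receptor of B cells, Cd74 (0.404) and H2-Aa (0.414), an MHC class II chain. Fcer1g was closest to Tyrobp (0.212), the other ITAM adaptor of myeloid cells, which read 11.53 and 10.86 in marrow controls and 7.17 and 9.53 in culture controls. Fyb (0.327) and Plbd1 (0.365) followed. Fcgr3 was closest to Aoah (0.177), Tbc1d2b (0.227) and Alox15 (0.252). Fcgr2b, which spanned 1.42 log2 units, was closest to Ddx26b (0.128), Thbd (0.155) and Arhgap26 (0.170), and Fcrla, which spanned 1.01, to Gpr75 (0.106), Mlxip (0.120) and 4933433C11Rik (0.131). Among the 7 genes, Fcgr2b and Fcrla were closest to each other (0.394) and Faim3 and Fcer1g farthest apart (2.54).

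On chromosome 1, Fcrla, Fcgr2b, Fcgr4, Fcgr3 and Fcer1g lie in this order in the RefSeq annotation, with Dusp12 and Fcrlb before them. Between neighbours the changes differed in size: in marrow, deletion gave -0.00077 for Fcrla, 0.02 for Fcgr2b, -1.82 for Fcgr4, -0.78 for Fcgr3 and -1.76 for Fcer1g. In culture it gave -0.35, -0.68, 0.05, 0.78 and 1.12 in the same order. Dusp12 (0.14 in marrow and 0.03 in culture) and Fcrlb (-0.07 and 0.10) lay near 0. Fcrlb had little room to fall, at control means of 4.34 in marrow and 4.13 in culture. In this stretch 1 gene passed for deletion, Pcp4l1, which lies between Fcgr3 and Fcer1g and was picked out after its values were seen; it was higher by 1.38 in culture (adjusted p = 0.0353) and by 1.17 in marrow (adjusted p = 0.111).

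**Figure D5:**
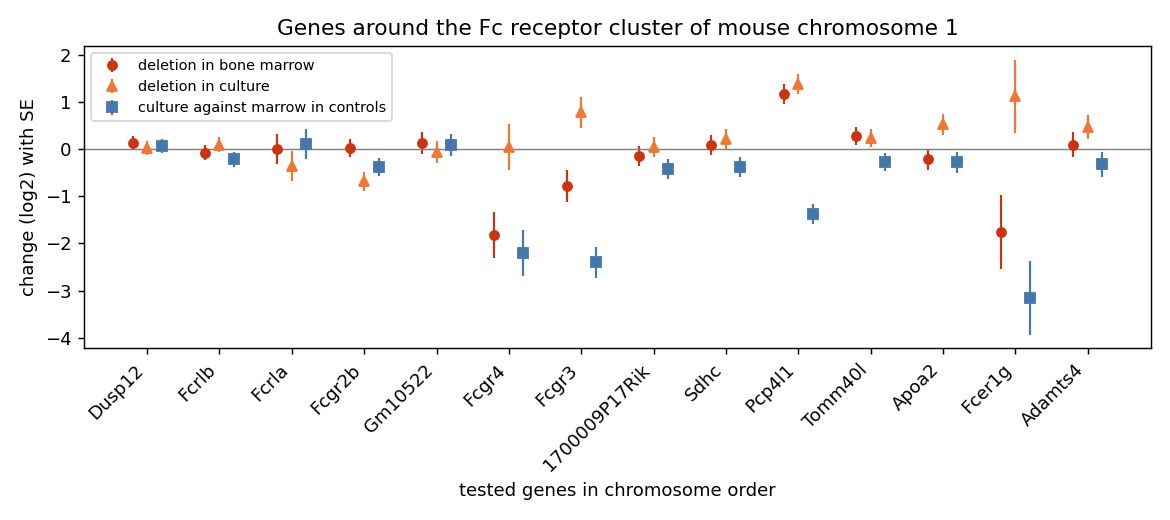
Log2 change of the measured genes of the chromosome 1 Fc receptor stretch, in annotation order, for deletion in marrow, deletion in culture and culture against marrow in controls (error bars, standard error). Values near 0 at Dusp12 and Fcrlb lie beside the spread of the Fc receptor genes and Pcp4l1.

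Of the 18 nearest annotated genes to the 3 that fell, 3 on each side, 9 were tested, 5 by Faim3, 3 by Fcer2a and 1 by Fcrl1. None of the 9 passed for deletion. Of all genes, only 0.131% passed in marrow and 1.45% in culture, in either direction. With shares this small, no call among 9 genes does not show that the falls stop at the 3 genes. Next to Faim3 on chromosome 1 lie Fcamr and Pigr, 2 other receptors for polymeric immunoglobulin, which differed by -0.03 and -0.24 in marrow and by -0.33 and -0.14 in culture. The cytokine genes Il24 (-0.34 and -0.55), Il20 (-0.27 and 0.01) and Il19 (-0.12 and -0.12) follow. Next to Fcer2a on chromosome 8, Trappc5 differed by -0.49 and -0.21, and the lectin genes Clec4g by -0.39 and 0.15 and Cd209a by -1.79 and 0.45. Next to Fcrl1 on chromosome 3, Fcrl5 differed by -0.65 in marrow (SE 0.33, adjusted p = 0.482) and by -0.59 in culture (SE 0.33, adjusted p = 0.463).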

How the data were processed

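The authors deposited log2 expression values for 241576 probesets on 8 Affymetrix arrays, made by RMA in Affymetrix Expression Console 1.2.0.20, per the submitters' processing notes. Per the labels, RNA was column-purified, amplified with a Nugen Ovation kit and biotin-labelled. Signal strength and the 2 arrays per group limit the precision. Probesets were named from the platform annotation, of which 212097 had 1 symbol, 4475 several and 25004 none, and gene symbols were matched to RefSeq (17621 current, 2742 through a synonym, 53 unmatched).

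A gene's value was the median polish over its probesets. Genes above the 25th percentile of gene values (log2 4.03) in at least 2 arrays were fitted with limma 3.58.1 in R 4.3.3 as 4 group means over all 8 arrays (4 residual and 3.53 prior degrees of freedom), with Benjamini-Hochberg adjustment over 16050 genes, a threshold of 0.05 and two-sided tests; the fit was tested on simulated data. RMA pulls low values together, so differences of dim genes are uncertain. The 7 genes were named whatever their values; genes of 2 other lists were named where they passed the threshold or lay next to one of the 7, and of each marker list the counts and levels are given. The genes and lists were chosen with earlier results of these data known. Promoter windows came from RefSeq (GRCm38.p6). Alternatives covered the gene summary, filter, scaling, moderation, replicate block, groups fitted and each array left out; the fit with probesets as the unit was added after seeing the data.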

Additional observations from a re-analysis of the deposited data

Results flagged for a closer look

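Fcgr3, the activating IgG receptor chain, had its marrow deleted arrays below the marrow controls and its culture deleted arrays above the culture controls, and it drew attention for these opposite directions. The difference between the deletion effects, culture minus marrow, was 1.56 (log2; SE 0.47, 2 arrays in each group). The interaction was tested with limma and did not pass after adjustment over all genes (adjusted p = 0.592), with adjusted p from 0.0359 to 0.988 over its alternatives. The mean of the neutrophil and monocyte markers ran 8.84 to 9.06 and 8.56 to 8.67 in marrow controls and deleted cells and 5.07 to 7.09 and 6.12 to 7.79 in culture controls and deleted cells. In marrow 10 of the 14 markers were lower with deletion and 4 higher, and in culture all 14 were higher. Their part in the difference was not tested.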

How the results depend on the processing

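Set against the values above, 526 changes of single genes under an alternative kept direction and side of the threshold, 48 kept direction and lost the call, 11 gained one and 31 changed sign. In marrow, where 0 of the 7 genes passed, 1 passed with the mean of probesets as the gene value, and 0 to 2 passed with 1 array left out. In culture, where 2 passed, 1 passed with no filter on dim genes, 1 with only probesets above the 25th percentile, 0 after quantile normalisation, 0 with trend and robust moderation, 1 with only the groups compared, 0 to 3 with 1 array left out, 0 without both culture arrays numbered 2 and 0 with probesets as the unit. For the mean effect, where 3 passed, 0 to 3 passed with 1 array left out and 0 without both culture arrays numbered 2. For the difference between the effects, where 0 passed, 0 to 2 passed with 1 array left out. For culture against marrow in controls, where 1 passed, 0 passed with only probesets above the 25th percentile, 0 with only the groups compared, 0 to 2 with 1 array left out and 0 without both culture arrays numbered 2. No label says that a replicate number pairs samples, and deviations of same-numbered arrays correlated across genes at 0.34 between the culture groups, whose second arrays both read higher for neutrophil genes, and between -0.18 and 0.05 over the other pairs of groups. With the replicate number as a block, 0 of the 7 passed in culture (adjusted p = 0.0616 for Faim3 and 0.0776 for Fcrl1), against 2 without it, and 0 for culture against marrow in controls, against 1; the counts for marrow (0), the mean effect (3) and the difference between effects (0) were as without it. None of the 31 changes of sign touched a value that passed. Fcrla in marrow was 0.19 with the mean of probesets and 0.026 with arrays centred, and Fcgr3 as the mean effect was -0.0060 centred, -0.043 after quantile normalisation and -0.053 without both culture arrays numbered 2. Without those arrays Fcer2a was 0.54 for the difference between effects and -0.36 for culture against marrow in controls. With 1 array left out, and the gene values and filter kept from all 8, the range was, in marrow, -0.24 to 0.29 for Fcgr2b, -0.41 to 0.41 for Fcrla; in culture, -0.020 to 2.26 for Fcer1g, -0.71 to 0.0088 for Fcrla; as the mean effect, -0.38 to 0.028 for Fcrla, -0.24 to 0.24 for Fcgr3, -0.89 to 0.25 for Fcer1g; for the difference between effects, -2.21 to 0.21 for Faim3, -1.28 to 0.50 for Fcer2a, -0.76 to 0.057 for Fcrla, -0.083 to 1.16 for Fcrl1; for culture against marrow in controls, -0.37 to 1.41 for Fcer2a, -0.30 to 0.51 for Fcrla. The cause of these shifts was not tested, and leaving out an array also leaves fewer residual degrees of freedom and, for a lone array, assumes that it varies like the other groups. Dim values, as of Fcer2a in deleted cells, limit the sizes. The share of all genes passing under each alternative is not given here, so gained calls are no result about the 7 genes.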
